A study of Mus musculus with 6 samples.

Results

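The MxCre LT-HSC libraries are the reference group of a study of mouse bone marrow stem cells, the long-term haematopoietic kind (LT-HSC), and they make up 2 of its 6 RNA-seq libraries. They were chosen by their label, Mx, and not by any measured value. The other 4 libraries are 2 of Flt3ITD and 2 of NPMc_Flt3ITD and are not used here. Both Mx libraries came from C57BL/6 mice of the genotype MxCRE, aged 8 to 11 weeks, whose LT-HSC were sorted from crushed limb bones and sternum. RNA was purified from 3000 to 7000 sorted cells and its polyadenylated part amplified by SMART-seq. MxCre is a Cre recombinase under the interferon-inducible Mx1 promoter, which is active in haematopoietic cells and also in other tissues. The labels do not say whether the mice were induced, which surface markers defined the sort or whether animals were pooled. The labels call the samples biological replicates, and with 2 libraries and no second group no test was made, so every result is a level, a rank or a count.

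LT-HSC are the rare bone marrow cells that can rebuild all blood lineages after transplantation over a long period. Most of them rest outside the cell cycle, make protein slowly and respond to the niche through receptors such as Kit and Tek. Their state is held by a network of transcription factors that includes Gata2, Runx1, Tal1, Meis1, Erg and Mecom. Genes of this network and of the niche receptors are used as their markers.

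Levels are normalized CPM from the authors' table, which lists 17997 genes. These are read counts scaled to an effective library size, which differs from the total of reads. A gene was called detected at 1 CPM or more in both libraries, and its rank by CPM, like the words led by, follows its share of the reads, which grows with transcript length. Orders of level between genes are given per kilobase of exon. Recovered reads came to 27088450 in replicate 1 and 19287765 in replicate 2, so that 1 read was worth 0.0375 and 0.0471 CPM. A count of 0 allows up to 3 reads, which is 0.112 and 0.141 CPM, and these floors cover counting error only because reads without molecular identifiers are not independent molecules. The precursor ribosomal RNA Rn45s took 25.1% of the reads in replicate 1 and 15.7% in replicate 2, and shares below leave it out. The shallower library listed more genes above 0, with 16226 in replicate 2 and 15005 in replicate 1. Of all genes, 11765 (65.4%) were detected, 952 reached 1 CPM in only 1 library and 1324 were at 0 in both. This 65.4% is the share beside which each count of detected list members below is to be read. Xist, a noncoding RNA made from the inactive X in female cells, was at 1007 and 1038 CPM and the Y-linked Ddx3y at 20.4 and 24.8 CPM, so both libraries held reads of both.

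Levels of LT-HSC markers are described here and are no test of the label. All 32 genes of the LT-HSC identity list were detected, a share of 100% against 65.4% of all genes. Their median was 78.4 CPM in replicate 1 and 79.2 CPM in replicate 2, against 9.75 and 9.85 CPM over all genes listed. The list was chosen with earlier results of these data known, so its full detection cannot check the label. Among lists of other cells, 13 of 14 multipotent and lymphoid-primed and 14 of 15 granulocyte-monocyte progenitor genes were detected. For hepatocytes it was 1 of 10. In bulk RNA, fewer cells of a type and less RNA per cell cannot be told apart. Mecom, a zinc finger transcription factor required for stem cell maintenance, was at 102 and 110 CPM in replicates 1 and 2. Procr, the endothelial protein C receptor (EPCR) used to isolate LT-HSC, was at 87.6 and 85.8 CPM. Esam, a cell adhesion molecule shared by stem cells and endothelium, was at 143 and 138 CPM. These 3 genes differed little between the libraries. Mllt3, a chromatin reader that sustains stem cell self-renewal, was at 148 CPM in replicate 1 and 175 CPM in replicate 2. By mean CPM over all genes listed, Mllt3 ranked 794, Esam 985, Mecom 1487 and Procr 1987, so all were well inside the upper part of the table and none was among its most abundant genes.

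Kit, the receptor for stem cell factor, had the highest CPM of the identity list at 689 and 716 CPM and ranked 115 among all genes. Ifitm1, an interferon-induced membrane protein, followed at 529 and 828 CPM. Meis1, a homeobox partner of the Hox proteins, was at 477 and 379 CPM. Per kilobase of exon the order was different. Ifitm1 led with 484 and 757 CPM per kilobase, and its lower library stood above both libraries of the next gene. Ly6a (Sca-1), Lmo2 and Kit lay between 96.4 and 207 CPM per kilobase, and the range of Lmo2 covered both others, so their order was not resolved by 2 libraries. Hlf, a stem cell transcription factor, was at 250 and 256 CPM, and Gata2 at 186 and 167 CPM. The lowest members were Rarb, a retinoic acid receptor, at 4.01 and 10.2 CPM, Hoxb5, a marker of LT-HSC in reporter mice, at 7.57 and 8.25 CPM, and Thy1 at 8.32 and 9.85 CPM. Rarb and Lmo2 of the 32 were over 2-fold apart, both higher in replicate 2. Of all genes with a mean of at least 5 CPM, 4.67% were over 2-fold apart and 2.5% over 2-fold higher in replicate 2.

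**Figure D1:**
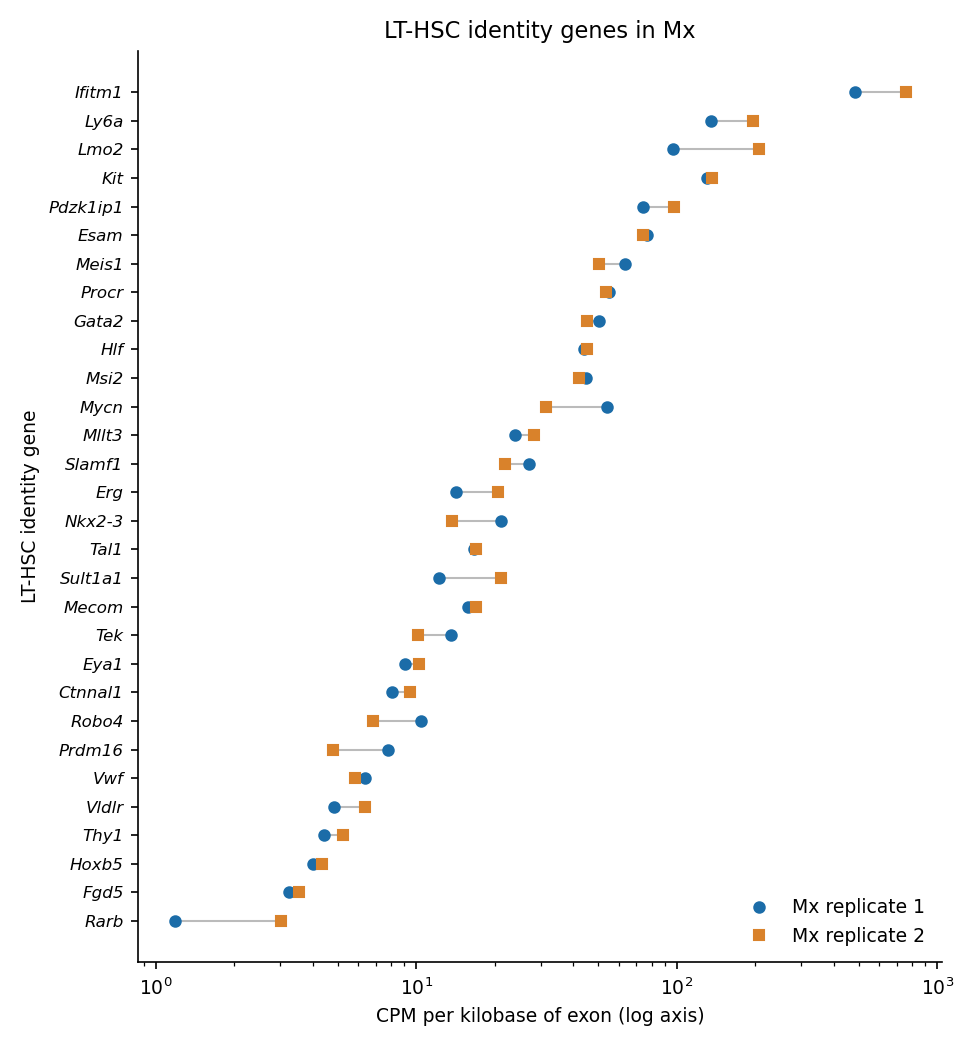
Each row is a gene of the LT-HSC identity list, with 30 of the 32 drawn, ordered by mean level, and the x axis gives CPM per kilobase of exon on a log axis; the circle is Mx replicate 1, the square Mx replicate 2, and the grey line joins them. Ifitm1 stands at the top and Rarb at the bottom, and Rarb and Lmo2 are the genes drawn whose points are over 2-fold apart.

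The most abundant messages of MxCre LT-HSC were those of translation, the cytoskeleton and antigen presentation. After Rn45s, at 254933 and 142571 CPM, came Eef1a1, the elongation factor that brings aminoacyl-tRNA to the ribosome, at 8333 and 9061 CPM. Actb, the cytoplasmic beta-actin, was at 5321 and 6799 CPM. B2m, the light chain of MHC class I, was at 3942 and 5173 CPM. Eef1a1 and Actb held places 2 and 3 in both libraries, and B2m held place 5 in replicate 1 and place 4 in replicate 2. H3f3b, which encodes the replication-independent histone H3.3, was at 3856 and 2753 CPM. Fos, a subunit of the AP-1 transcription factor, was at 4767 CPM in replicate 1 and 1646 CPM in replicate 2 and took place 4 in the first and place 32 in the second. The constitutive chaperone Hspa8 was at 3484 and 2461 CPM, the RNA helicase Ddx5 at 3007 and 2749 CPM, and the membrane protein Serinc3 at 2764 and 2484 CPM.

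Places 10 to 25 by mean CPM included Rplp0, Rpl4, Rpl3, Hsp90ab1, Rps4x, Rps6, Lars2, Ptma, Rps3a1, Rps3, Actg1, H2-K1, Malat1, Rpsa and Rpl5. Their levels lay between 1291 and 2695 CPM in either library. Most encode proteins of the ribosome, and the rest are a chaperone, a tRNA synthetase, prothymosin alpha, gamma-actin, an MHC class I heavy chain and a nuclear noncoding RNA. Of the 100 genes with the highest mean, 44 were ribosomal protein genes by symbol, and the top 100 lists of the libraries shared 88 genes. The 10 most abundant genes took 5.33% of the reads in replicate 1 and 5.0% in replicate 2. The share of the top 100 was 19.1% and 20.8%, and that of the top 1000 was 49.8% and 51.3%. Of 8 translation elongation genes 7 were detected, with Eef2, the translocation factor, at 1678 and 1494 CPM and Eif5a at 1125 and 1126 CPM after Eef1a1, while the muscle and nerve isoform Eef1a2 was at 0 and 0.0471 CPM. Of 6 actin genes only the cytoplasmic Actb and Actg1 were detected, and the muscle actins Acta1, Acta2, Actc1 and Actg2 stayed below 2 CPM. All 4 thymosin genes were detected, led by Ptma, Tmsb4x at 660 and 783 CPM and Tmsb10 at 241 and 247 CPM.

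**Figure D2:**
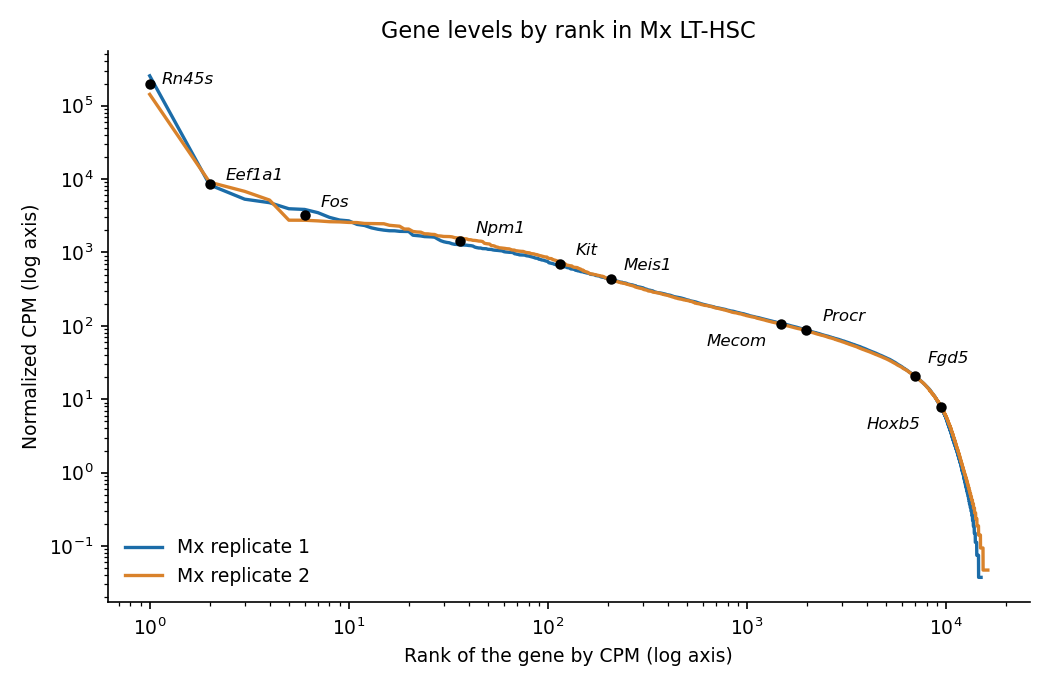
The x axis is the rank of each gene by CPM within a library and the y axis its normalized CPM, both on log axes; each line is 1 Mx library, leaving out genes at 0, and black points mark the mean CPM of named genes at their rank by mean. The lines run close together except at the top, where Rn45s is at 254933 CPM in replicate 1 and 142571 CPM in replicate 2, and at the bottom, where replicate 2 reaches 16226 genes and replicate 1 reaches 15005.

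Per kilobase of exon B2m led all genes, at 4583 and 6015 CPM per kilobase, followed by Eef1a1 at 4645 and 5051 CPM per kilobase. Their ranges overlapped, so 2 libraries did not settle which was first. Gm20594 was next at 3019 and 3634 CPM per kilobase. Its transcript matched the mitochondrial 16S ribosomal RNA gene mt-Rnr2 at 88.5% identity over 435 of its 449 bases, and the assignment of reads between such copies is not stated in the labels. Actb was at 2771 and 3541 and Rps6 at 2204 and 2804 CPM per kilobase. Per kilobase of coding sequence the first 10 included Gm20594, B2m, Rpl41, H3f3b, Ptma, Eef1a1, Actb, Rps29 and Tmsb4x. Some low values among abundant families belong to genes with near-identical copies and are uncertain. Rps27, at 7.35 and 5.18 CPM, was matched without a mismatch over 221 bases by Rps27rt, and the glycolytic enzyme gene Eno1, at 22.0 and 21.6 CPM, was matched by Eno1b at 99.5% over 1736 bases. Neither copy is in the table used here. Transcripts of 140 other genes, processed pseudogenes among them, matched Gapdh at 95% identity or more over at least 100 bases, so its value is uncertain as well. By the same limits Eef1a1 was matched by 13 other genes, Rplp0 by 3 and Ifitm1 by 1, so these high values carry the same caution.

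Promoters of the genes at the top and bottom of the range differed in base composition, and 5 are shown to make this visible. Each window runs from 250 bases before to 50 bases after the annotated start of the gene, taken from the RefSeq promoter table on GRCm38.p6, 5′ to 3′ on the strand of the gene, with every CG dinucleotide in capitals. Rplp0 is the ribosomal protein gene with the highest mean CPM (chr5:115559217-115559516, plus strand). Fos is the gene furthest apart between the libraries among the 10 most abundant after Rn45s (chr12:85473640-85473939, plus strand). Procr (chr2:155750967-155751266, plus strand) and Mecom (chr3:30509710-30510009, minus strand) are stem cell markers. Alb, serum albumin of the liver (chr5:90460620-90460919, plus strand), was at 0 in both libraries.
Rplp0: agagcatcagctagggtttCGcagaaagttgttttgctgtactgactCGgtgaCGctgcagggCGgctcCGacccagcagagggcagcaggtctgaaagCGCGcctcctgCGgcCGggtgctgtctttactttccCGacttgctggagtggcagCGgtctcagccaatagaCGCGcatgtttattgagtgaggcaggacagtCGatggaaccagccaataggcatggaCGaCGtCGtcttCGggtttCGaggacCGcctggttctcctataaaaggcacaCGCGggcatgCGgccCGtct
Fos: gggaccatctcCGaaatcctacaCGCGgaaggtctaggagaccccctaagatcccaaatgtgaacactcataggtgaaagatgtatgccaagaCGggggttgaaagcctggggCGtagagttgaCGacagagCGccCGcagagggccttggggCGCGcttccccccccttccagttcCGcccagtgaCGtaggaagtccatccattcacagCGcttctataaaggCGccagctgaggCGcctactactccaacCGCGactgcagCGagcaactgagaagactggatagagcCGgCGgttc
Procr: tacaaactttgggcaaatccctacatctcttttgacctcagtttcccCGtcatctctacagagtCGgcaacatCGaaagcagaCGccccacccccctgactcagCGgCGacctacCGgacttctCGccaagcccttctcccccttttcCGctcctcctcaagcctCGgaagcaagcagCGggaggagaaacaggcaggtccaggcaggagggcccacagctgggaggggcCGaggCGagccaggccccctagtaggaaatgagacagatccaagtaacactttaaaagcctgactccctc
Mecom: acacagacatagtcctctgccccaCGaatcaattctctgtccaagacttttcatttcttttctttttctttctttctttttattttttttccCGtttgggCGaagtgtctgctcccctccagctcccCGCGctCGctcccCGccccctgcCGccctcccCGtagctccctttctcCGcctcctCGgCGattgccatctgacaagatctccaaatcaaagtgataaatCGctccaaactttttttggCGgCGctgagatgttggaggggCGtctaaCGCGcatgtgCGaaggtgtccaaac
Alb: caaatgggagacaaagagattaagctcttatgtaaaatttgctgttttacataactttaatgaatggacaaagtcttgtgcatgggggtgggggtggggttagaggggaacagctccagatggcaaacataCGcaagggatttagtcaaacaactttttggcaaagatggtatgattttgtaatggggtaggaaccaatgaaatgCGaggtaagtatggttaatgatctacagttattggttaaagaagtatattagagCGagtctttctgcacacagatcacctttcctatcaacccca
The Rplp0 window holds 24 CG dinucleotides, that of Fos 20, that of Mecom 19, that of Procr 13 and that of Alb 3. Relative to what their base composition gives, the ratio of observed to expected CG was 0.928 in Rplp0, 0.775 in Fos, 1.02 in Mecom, 0.528 in Procr and 0.272 in Alb. Over the 12831 genes with a promoter in the table, the median ratio was higher in each higher class of mean CPM. It was 0.283 for genes at 0 in both libraries, 0.397 above 0 and below 1 CPM, 0.647 up to 10, 0.791 up to 100, 0.819 up to 1000 and 0.877 at 1000 CPM and more. The last class rests on 49 promoters. The letters TATAAA, searched on the strand of the gene over the whole 300 bases, occur in the Rplp0 and Fos windows and not in the other 3. They were in 5.60% of all matched promoters, in 11.4% of those of genes at 0, in 3.57% of those from 10 up to 100 CPM and in 14.3% of those at 1000 CPM and more, which is 7 of 49. Of the 29 matched promoters of the ribosomal protein list, 2 (6.9%) hold them, so Rplp0 is not typical of that list here. None of the 23 matched promoters of the identity list holds them. These letters are a description of the window and not evidence of a used site.

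The Hox genes encode homeobox transcription factors in 4 chromosomal clusters. Of the Hoxa genes 7 of 10 listed were detected, which is close to the share of all genes. Hoxa10, at 38.3 and 39.7 CPM, and Hoxa9, at 33.9 and 26.6 CPM, both of the posterior part of the cluster and both known in haematopoietic stem cells, led it. Per kilobase Hoxa10 (12.2 and 12.6) stood above Hoxa9 (10.5 and 8.24) in every library, and Hoxa9 above Hoxa5 (3.68 and 7.93) and Hoxa7 (5.59 and 5.03). Hoxa7 was at 13.9 and 12.5 CPM, and Hoxa13 was at 0 in both. In the Hoxb cluster 4 of 10 were detected, Hoxb2, Hoxb3, Hoxb4 and Hoxb5, a lower share than the 65.4% of all genes. Hoxb5, at 7.57 and 8.25 CPM, led, with Hoxb3 at 9.37 and 5.89 CPM and Hoxb4 at 4.95 and 5.14 CPM; per kilobase Hoxb5 (4.0 and 4.35) stood above Hoxb3 (2.66 and 1.67) in both libraries. None of the 6 Hoxc genes listed was detected, and Hoxc6 was highest at 0.412 and 0.942 CPM. Hoxd3, Hoxd11 and Hoxd13, the only Hoxd genes listed, were at 0 in both. The A cluster led, with a summed 107 CPM in each library against 28.7 and 26.2 CPM for the B cluster and 2.36 and 1.93 CPM for the C cluster, sums that are not scaled by length.

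**Figure D3:**
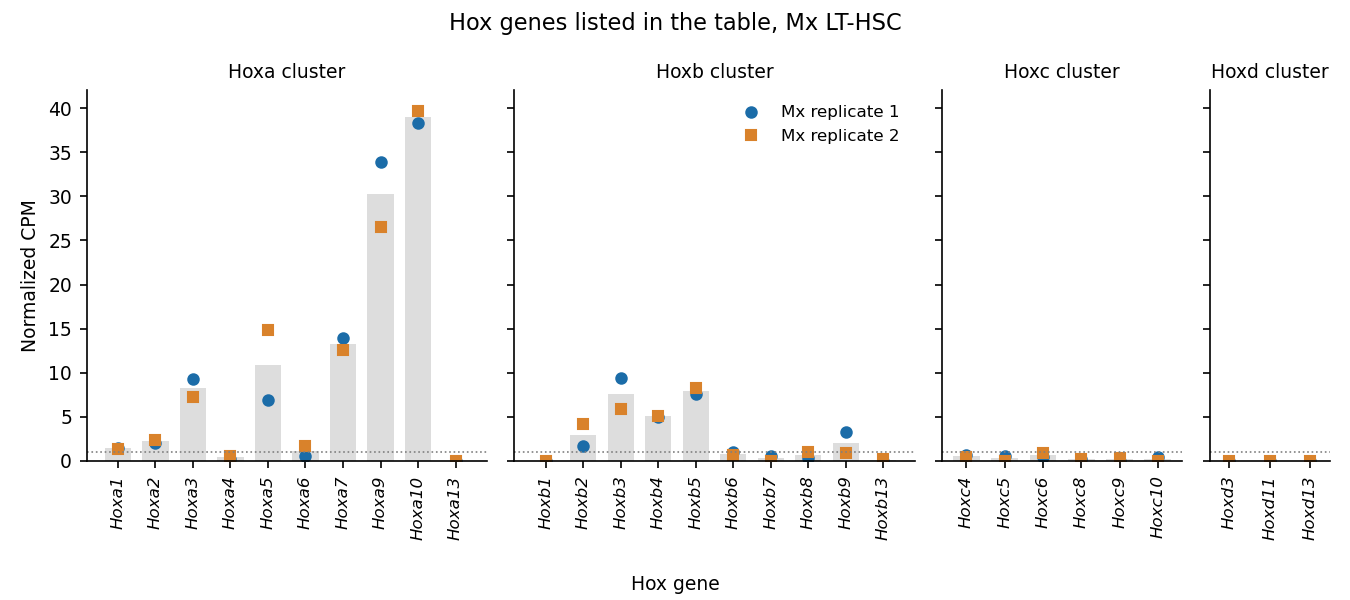
Normalized CPM of each Hox gene listed in the table, in 4 panels by cluster on 1 linear y axis; circles are Mx replicate 1, squares Mx replicate 2, grey bars their mean, and the dotted line is 1 CPM. Hoxa10 and Hoxa9 stand highest, 4 Hoxb genes have both points above the line, and the Hoxc and Hoxd genes stay below it.

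Of the Hox partners of the Meis and Pbx families 7 of 8 were detected. Meis1 was far above the rest per kilobase, at 63.2 and 50.2. The lower members included Pbx4 at 10.9 and 11.8 and Pknox1 at 6.15 and 7.44 CPM per kilobase, with no overlap between these. Of 4 Gata genes listed, Gata2, which maintains stem cells, was highest at 50.4 and 45.2 CPM per kilobase. Gata1, the erythroid and megakaryocytic member, had 30.0 and 19.4, and Gata3, known for T cells and also expressed in stem cells, had 16.3 and 10.3 CPM per kilobase. All 3 Runx genes and their partner Cbfb were detected, with Runx1 at 176 and 135 CPM, Runx2 at 89.7 and 100 CPM and Cbfb at 54.6 and 65.4 CPM. Per kilobase Runx1 and Cbfb overlapped and both stood above Runx2.

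Of the Ets family 16 of 24 genes were detected, close to the 65.4% of all genes. Etv6, a repressor required for adult stem cells, led at 265 and 287 CPM. Elf1 was at 273 and 262 CPM and Fli1 at 258 and 227 CPM. Fli1 was highest per kilobase, at 77.8 and 68.4. The epithelial members Elf5 and Ehf and the embryonic Etv2 were at 0 in both. All 7 Stat genes, all 9 Irf genes and all 5 Ikaros genes were detected. Stat3 was at 249 and 207 CPM and Stat5a at 119 and 153 CPM. Irf1 was at 245 and 224 CPM, Irf2, which restrains interferon signalling in stem cells, at 144 and 159 CPM, and Irf9 at 131 and 91.6 CPM. Ikzf1, Ikzf2 and Ikzf5 led the Ikaros genes, at 111 and 116, 104 and 90.4, and 40.4 and 27.6 CPM.

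In the Cebp family 2 of 6 were detected at 1 CPM in both, and these were Cebpz, at 84.6 and 122 CPM, and Cebpg, at 23.1 and 34.6 CPM. The myeloid members were low: Cebpa was at 0.787 and 2.54 CPM and Cebpe at 0 in both. Of the Myc network 9 of 10 were detected, with Myc at 381 and 188 CPM, Mycn at 152 and 88.6 CPM and the MAX-binding protein gene Mga at 104 and 110 CPM. Of 17 Klf genes 13 were detected, led by Klf6 at 876 and 378 CPM, Klf10 at 187 and 191 CPM and Klf13 at 136 and 89.9 CPM. Of the 4 Foxo genes 3 were detected, Foxo1 at 17.4 and 21, Foxo3 at 16.6 and 13.9 and Foxo4 at 2.51 and 8.48 CPM. Foxo3 is known to keep stem cells at rest. Of 7 Id and E protein genes 6 were detected, led by Tcf4 at 119 and 112 CPM, Tcf12 at 37.7 and 40.8 CPM and Tcf3 at 29.8 and 31.0 CPM. The Smad list had 6 of 8 detected, led by Smad3 at 103 and 115 CPM, Smad5 at 53.5 and 68.0 CPM and Smad2 at 61.6 and 49.8 CPM. The Sox list had 6 of 13, below the 65.4% of all genes. It was led by Sox6 at 31.6 and 30.5, Sox4 at 15.3 and 18.4 and Sox12 at 6.75 and 6.17 CPM. Sox11 was at 0 in both.

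In class III of the receptor tyrosine kinases Kit was at 131 and 136 CPM per kilobase. Flt3, the receptor of lymphoid-primed progenitors, was at 11.9 and 10.5, Pdgfrb at 1.45 and 1.53 and Csf1r, the macrophage receptor, at 0.376 and 0.434 CPM per kilobase. Pdgfra was at 0 in both, and no neighbours in this order overlapped. The ligand Angpt1 was higher per kilobase than its receptor Tek (Tie2), at 146 and 136 against 13.6 and 10.1, and also than Tie1 at 28.2 and 21.4. In CPM, Angpt1 was at 622 and 579 and Tek at 64.2 and 47.5. Angpt4 was at 0 in both.

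Of 30 haematopoietic cytokine receptor genes 29 were detected, among them the shared gamma chain Il2rg at 176 and 200 CPM and the interferon gamma receptor chain Ifngr1 at 136 and 146 CPM. The interferon alpha receptor chains Ifnar1 and Ifnar2 were at 99.7 and 102 and at 79.0 and 100 CPM. Of 14 TGF-beta and BMP receptors 9 were detected, led by the co-receptors Eng at 283 and 202 CPM and Tgfbr3 at 103 and 90.9 CPM and by Tgfbr2 at 78.9 and 76.9 CPM, with Bmpr1b at 0 in both. Of their ligands 5 of 12 were detected, also under the 65.4% of all genes, with Tgfb1 at 8.47 and 13.6, Gdf15 at 5.92 and 1.84 and Tgfb3 at 2.29 and 5.14 CPM, and Bmp6 and Inhbb at 0 in both. Notch2, at 129 and 145 CPM, and Notch1, at 25.8 and 23.2 CPM, led the 9 Notch receptors and ligands, followed by the ligand Jag2 at 10.7 and 4.90 CPM, and 5 were detected. Of 12 Frizzled and Lrp receptors 7 were detected, led by Lrp6 at 29.8 and 36.0, Fzd6 at 12.6 and 23.5 and Fzd3 at 17.8 CPM in both, with Fzd2 at 0 in both.

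Of 18 integrin alpha chains 9 were detected, below the 65.4% of all genes. Itga4 led at 204 and 224 CPM and pairs with the beta chains Itgb1 and Itgb7 to hold stem cells in the marrow. Itga2b followed at 177 and 103 CPM and Itga5 at 49.1 and 49.2 CPM. Itgad was at 0 in both. Of 7 beta chains 5 were detected, led by Itgb1 at 148 and 158 CPM, Itgb2 at 69.3 and 41.5 CPM and Itgb7 at 37.3 and 29.4 CPM. Only 7 of 18 chemokine receptors were detected, below the 65.4% of all genes; Cxcr2 was at 20.1 and 28.6, Cxcr4, the receptor of the niche chemokine, at 12 and 11.7 and Ccr2 at 3.56 and 2.54 CPM, and Ccr8 was at 0 in both. In the Slam family 6 of 8 were detected. Slamf1 (CD150), a positive marker of LT-HSC, was at 72.7 and 58.9 CPM, and Cd48, a marker whose surface protein is low on LT-HSC, was at 39.9 and 60.9 CPM, so its transcript was present in both libraries. Ly9 was at 34.0 and 28.2 CPM. Per kilobase Cd48 (33.6 and 51.2) stood above Slamf1 (27.0 and 21.9). S1P receptors were detected for 4 of 5, led by S1pr4 at 114 and 61.5, S1pr1 at 47.8 and 55.6 and S1pr2 at 22.4 and 22.2 CPM. Toll-like receptors were detected for 5 of 12, also below the 65.4% of all genes. They were led by Tlr2 at 16.4 and 17.7, Tlr4 at 14.4 and 15.8 and Tlr12 at 3.11 and 7.73 CPM. Tlr8, Tlr11 and Tlr13 were at 0 in both.

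Transcripts of the cell cycle were present. All 16 mitotic genes were detected, led by Top2a at 176 and 220 CPM, the proliferation antigen Mki67 at 127 and 117 CPM and the kinesin Kif11 at 69.3 and 75.8 CPM. All 6 Mcm helicase subunits, which load on replication origins, were detected, with Mcm6 at 452 and 441 CPM, Mcm3 at 327 and 266 CPM and Mcm7 at 256 and 236 CPM. Among 9 cyclins, Ccnd3 (85.4 and 62.6) and Ccnd2 (56.2 and 49.1) were highest per kilobase and Ccnd1 stood at 15.3 and 11.4 CPM per kilobase. Ccnb3 was at 0 in both. All 6 kinases were detected, among them Cdk4 at 398 and 403 CPM, Cdk2 at 142 and 124 CPM and Cdk6 at 64.0 and 92.3 CPM. Per kilobase Cdk4 was first, at 194 and 196, and Cdk6 last, at 5.55 and 8.00.

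Of 7 CDK inhibitors 5 were detected, near the 65.4% of all genes. Cdkn1a (p21) was at 45.5 and 50.5 CPM and Cdkn1b (p27) at 33.7 and 31.3 CPM. Cdkn1c (p57), a regulator of stem cell quiescence, was at 3.22 and 6.27 CPM and Cdkn2c at 6.30 and 8.67 CPM. Per kilobase Cdkn2c and Cdkn1c overlapped. Cdkn2a, the gene of the senescence proteins p16 and p19, was at 0 and 0.188 CPM and Cdkn2b at 0 and 0.0942 CPM, the first from 4 reads in replicate 2 and the second within the floor. All 3 retinoblastoma genes were detected, Rbl2 at 83.3 and 68.6, Rbl1 at 49.2 and 57.4 and Rb1 at 14.8 and 17.3 CPM. All 8 E2f genes were detected, led by E2f4 at 34.1 and 69.6, E2f8 at 29.8 and 31.0 and E2f3 at 30.4 and 24.7 CPM. On the dormancy and quiescence list 22 of 23 genes were detected. Its 3 highest were Egr1 at 1223 and 936 CPM, Zfp36 at 996 and 624 CPM and Nr4a1 at 1012 and 451 CPM, immediate-early genes, of which Nr4a1 was over 2-fold apart between the libraries. These 3 held much of the list sum of 6283 and 4011 CPM, so that sum is no measure of dormancy.

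Of 18 genes of the BCL2 family 11 were detected, near the 65.4% of all genes. Mcl1, a survival protein on which stem cells depend, led at 182 and 135 CPM. Bcl2 was at 63.7 and 61.6 CPM and Bid at 64.6 and 46.7 CPM. Bcl2a1a and Bcl2a1d, near-identical copies of each other, were at 0 in both, and reads of such copies are uncertain. Of the epigenetic regulators 20 of 20 polycomb genes, 11 of 11 histone deacetylases and 6 of 7 DNA methyltransferase and Tet genes were detected, against 65.4% of all genes. Dnmt1, the maintenance methyltransferase, was at 218 and 210 CPM. The de novo enzymes Dnmt3a and Dnmt3b were at 119 and 83.0 and at 118 and 74.4 CPM. Per kilobase Tet1 (8.00 and 4.68) stood above Tet2 (4.52 and 4.47), and Tet2 above Tet3 (3.92 and 2.79). Rnf2, the catalytic subunit of polycomb complex 1, was at 107 and 85 CPM, Phc3 at 82.8 and 85.4 CPM and Ezh2, the methyltransferase of complex 2, at 65.6 and 87.5 CPM. Hdac1, Hdac3 and Hdac2 were at 165 and 178, 105 and 111, and 58.2 and 89.9 CPM. Msi2, an RNA-binding protein of stem cells, was at 303 and 285 CPM, while its paralogue Msi1 was at 0 and 0.0471 CPM, and 5 of the 9 genes of that list were detected.

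Enzyme isoforms of glucose metabolism differed widely in level. Of 4 lactate dehydrogenase genes 3 were detected, of 5 hexokinases 3 and of 2 pyruvate kinases both. Ldha was at 927 and 872 CPM and 489 and 460 per kilobase, Ldhb at 83.6 and 99.5 CPM and the testis isoform Ldhc at 0 and 0.0471 CPM. Hk1 was at 251 and 209 CPM, Hk2 at 60.9 and 74.7 CPM and Hk3 at 54.1 and 30.7 CPM. Pkm was at 719 and 658 CPM against 4.31 and 4.29 CPM for the liver and erythroid isoform Pklr. Among glucose transporters Slc2a3 (GLUT3) was at 151 and 140 CPM, Slc2a1 (GLUT1) at 63.1 and 39.9 CPM and Slc2a8 at 10.1 and 7.21 CPM, with the liver type Slc2a2 at 0 in both and 5 of 10 detected. All 4 pyruvate dehydrogenase kinases, which inhibit the pyruvate dehydrogenase complex in mitochondria, were detected, Pdk3 at 125 and 112, Pdk1 at 97.7 and 97.8 and Pdk2 at 45.3 and 46.2 CPM. All 11 glycolysis genes, led by Aldoa at 465 and 399, Gpi1 at 424 and 421 and Gapdh at 309 and 414 CPM, and all 23 oxidative phosphorylation genes, led by Atp5b at 1151 and 1034, Atp5a1 at 801 and 777 and Sdha at 369 and 391 CPM, were detected.

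Antioxidant enzymes were detected for 14 of 15 genes, led by Gpx1 at 641 and 606, Prdx6 at 503 and 495 and Sod1 at 426 and 412 CPM, with the extracellular Sod3 at 0 in both. All 5 ABC transporters of the list were detected, among them Abcg2, the dye pump behind the side population phenotype of stem cells, at 91.0 and 98.6 CPM, Abcc1 at 92.0 and 83.2 CPM and Abcc4 at 52.5 and 54.9 CPM. Of 4 retinaldehyde dehydrogenases 2 were detected. Aldh1a1 held nearly all the signal at 122 and 88.3 CPM, Aldh1a7 was at 1.46 and 2.59 CPM, and Aldh1a2 was at 0 in both. Haem and iron genes were detected for 12 of 13, led by the ferritin chains Fth1 at 916 and 1053 CPM and Ftl1 at 1105 and 833 CPM and by Urod at 79.6 and 80.1 CPM.

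Antigen presentation and interferon genes were high or present throughout. All 8 MHC class I genes were detected, with H2-K1 at 2014 and 1650 CPM and H2-D1 at 680 and 679 CPM beside B2m; the class I heavy chains are closely related, so the split of reads between them is uncertain. All 7 MHC class II genes were detected too, led by the invariant chain Cd74 at 203 and 253, H2-DMa at 144 and 158 and H2-Aa at 129 and 131 CPM, with the master regulator Ciita at 12.1 and 10.1 CPM. Ifitm1, Ifitm3 and Ifitm2 lay between 307 and 828 CPM and overlapped per kilobase, while Ifitm5, Ifitm6 and Ifitm7 stayed below 4 CPM. All 18 interferon response genes were detected, among them Oasl2 at 86.7 and 98.2 and Ifi44 at 69.0 and 84.3 CPM. Mx1, the gene whose promoter drives the Cre, was at 1.76 and 2.54 CPM.

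Of the nucleolar genes all 10 were detected. Npm1, which shuttles between nucleolus and cytoplasm, was at 1239 and 1594 CPM and ranked 36 by mean. Ncl was at 777 and 918 CPM and Nop58 at 265 and 246 CPM. All 78 cytoplasmic ribosomal protein genes found by symbol were detected, and so were all 76 mitochondrial ones, with medians of 765 and 1010.5 CPM against 42.6 and 44.1 CPM. Of 149 entries annotated as microRNA 2 were detected and of 87 small nucleolar RNA entries 7. Both counts come from amplified polyadenylated RNA and are no measure of the small RNAs in the cells. Of 18 imprinted genes listed 11 were detected, led by Gnas at 139 and 195 CPM, Grb10 at 111 and 94.6 CPM and Impact at 67.6 and 67.9 CPM, while H19 was at 0 and 0.942 CPM and Igf2 at 0 and 1.74 CPM. Of 14 noncoding RNAs listed 11 were detected, and Malat1, Xist and Gas5, at 886 and 797 CPM, were the highest after Rn45s, with Rmrp at 0 in both.

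Markers of other cell types were checked through 15 lists with 183 different genes in the table. Their summed level was 5998 CPM in replicate 1 and 6297 CPM in replicate 2. The lists share genes such as Vwf, Gata2, Thy1 and Cd9 with the identity or dormancy list, so a high sum does not single out another cell. The megakaryocyte and platelet list had 15 of 16 detected and summed to 1579.6 and 1385 CPM, with Nfe2 at 219 and 213 CPM and Cd9 at 186 and 178 CPM among its highest members. Vwf, the clotting factor also known from platelet-primed stem cells, was at 62.1 and 56.9 CPM, and Pf4 at 59.2 and 71.9 CPM. The erythroid list summed to 1372 and 1315 CPM, mostly from Car2 at 1018 and 1041 CPM, Car1 at 151 and 123 CPM and Tfrc at 62.1 and 54.9 CPM. The late erythroid genes were near 0, with the beta-globin gene Hbb-b1 at 0.975 and 0.989 CPM, Slc4a1 at 0.60 and 0 CPM and Alas2 at 0.937 and 1.41 CPM.

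The list of multipotent and lymphoid-primed progenitors had 13 of 14 detected, with Cd34 at 329 and 313 CPM, Plac8 at 213 and 299 CPM and Cd27 at 147 and 178 CPM. The list of granulocyte-monocyte progenitors had 14 of 15, with Lyz2 at 242 and 255 CPM, the granule protease Prtn3 at 136 and 103 CPM and myeloperoxidase Mpo at 54.7 and 120 CPM. The hepatocyte and neuron lists were close to empty. Hepatocyte markers summed to 2.74 and 3.82 CPM over 10 genes, the highest being Cyp2e1 at 1.39 and 1.88, Apoa2 at 0.637 and 0.518 and Apoa1 at 0.225 and 0.377 CPM, with albumin at 0 in both. Neuron markers summed to 6.56 and 9.42 CPM over 9 genes, most of it Eno2 at 5.51 and 4.43 CPM, with Rbfox3 and Gad1 at 0. Of the endothelial and stromal list 8 of 14 were detected, led by Pecam1 at 65.0 and 67.6, Emcn at 25.6 and 26.0 and Spp1 at 8.74 and 22.1 CPM, and the list summed to 123 and 151 CPM. Pdgfrb was at 7.95 and 8.39, the stromal Lepr at 6.41 and 7.92, Col1a2 at 4.16 and 7.11, the endothelial Kdr at 1.87 and 6.22 and Plvap at 1.99 and 1.41 CPM. Cdh5 and Pdgfra, also markers of endothelium and mesenchymal stroma, were at 0 in both. Of the keratin list 3 of 5 were detected, with a sum of 113 and 131 CPM. Krt18 was at 110 and 124 CPM, while Krt19 was at 0 in both and Epcam at 1.5 and 2.59 CPM.

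Of 14 macrophage and dendritic cell genes 4 were detected: the class II genes H2-Aa and H2-Ab1, at 148 and 97.8 CPM for the second, and the macrophage markers Cd68 at 10.7 and 12 CPM and Cd163 at 8.44 and 12 CPM, while the complement genes C1qa, C1qb and C1qc stayed below 1 CPM. Of 16 T and NK cell genes 11 were detected, near the 65.4% of all genes. They were led by Nkg7 at 76.3 and 90.3 CPM, Lck at 13 and 21 CPM and Thy1. The T cell receptor chain Cd3e was at 0 and 0.518 CPM. Of 9 mast cell and basophil genes 4 were detected, Gata2 being the highest, followed by Cpa3 at 15.5 CPM in both and Il1rl1 at 5.74 and 2.73 CPM. Of 9 plasma cell genes 6 were detected, led by Xbp1 at 152 and 123, the J chain gene Igj at 6.26 and 82.3 and Creld2 at 46.0 and 41.6 CPM.

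**Figure D4:**
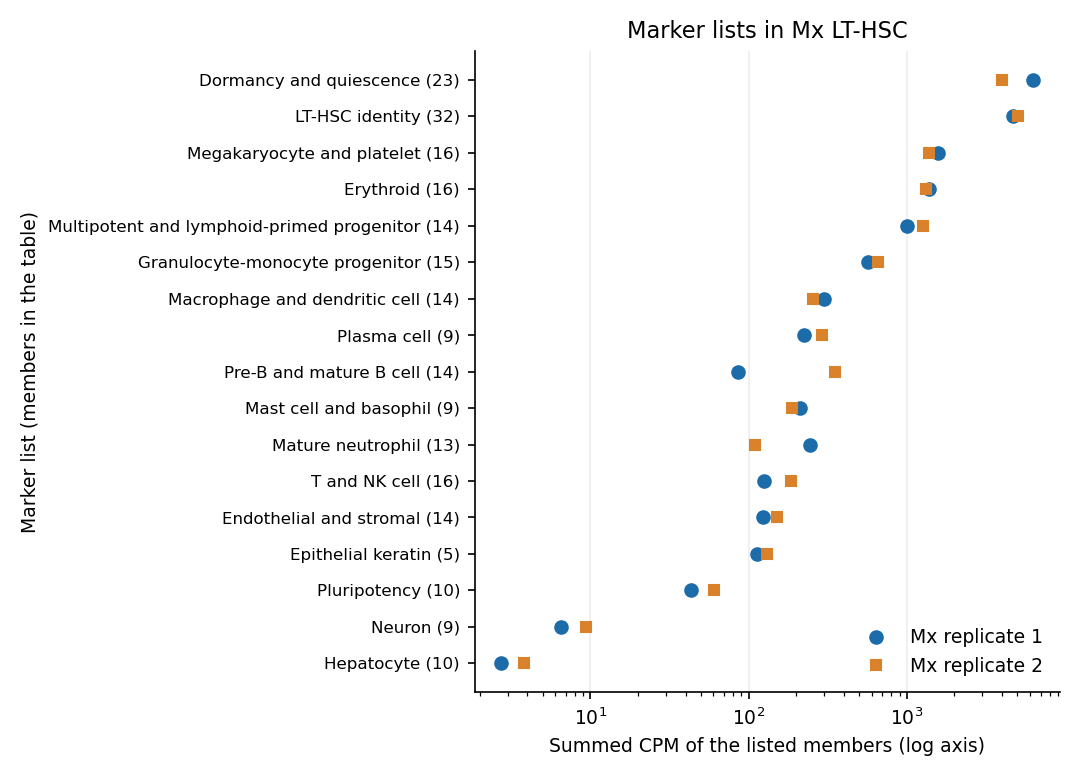
Each row is 1 marker list with the number of its members in the table, ordered by its sum, and the x axis gives the summed CPM of those members on a log axis; circles are Mx replicate 1 and squares Mx replicate 2. The lists of stem cell identity and of dormancy have the highest sums and those of hepatocytes and neurons the lowest. A sum grows with the number of members, and the dormancy sum is led by the immediate-early genes Egr1, Nr4a1 and Zfp36. The B cell and neutrophil lists are the widest apart between the libraries.

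The libraries were close over most genes. Over the 16673 genes above 0 in either library, log2(CPM + 1) had a Pearson correlation of 0.982 and CPM a Spearman correlation of 0.972. These correlations are across genes of 2 libraries, and genes are not independent replicates. Of 10231 genes with a mean of at least 5 CPM, 478 (4.67%) were over 2-fold apart, 222 (2.17%) higher in replicate 1 and 256 (2.5%) higher in replicate 2. The median log2 ratio of replicate 1 over replicate 2 was 0.03, and 53.4% of the genes were higher in replicate 1 against 46.6% higher in replicate 2. Scaling to the library totals moved this median to -0.13, with 3698 genes then higher in replicate 1 and 6599 higher in replicate 2, so differences under that shift have no sure direction. The median absolute log2 ratio was 1.09 below 1 CPM, 0.57 up to 10, 0.26 up to 100 and 0.18 up to 1000 CPM, beside 0.57, 0.15, 0.05 and 0.02 from counting alone, a floor that separately made libraries are bound to exceed. At 1000 CPM and more, in 68 genes, it was 0.32, beside 0.01 from counting.

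Several gene groups lay to one side. Here and in the marker lists below, a gene could reach the mean of 5 CPM through its higher library alone. Such genes can add to the counts over 2-fold apart. Of 16 early transcripts with a mean of at least 5 CPM, immediate-early and heat-shock genes known to be induced within minutes of cell handling as well as in living cells, 15 were higher in replicate 1, against 53.4% of all genes. Of these 16, 9 were over 2-fold higher there, against 2.17% of all genes, and none over 2-fold higher in replicate 2. Jun, the partner of Fos in AP-1, was at 2073 and 498 CPM, Junb at 705 and 136 CPM and the inducible chaperone Hspa1a at 26.1 and 3.53 CPM. Egr1 was closer, at 1223 and 936 CPM, and Jund was at 27.3 and 27.5 CPM. The Fos and Jun family had 6 of 7 detected and the Egr and Nr4a family 5 of 7, with Egr4 at 0 in both.

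Ribosomal protein genes lay the other way, with 69 of 77 higher in replicate 2 against 46.6% of all genes. They took 8.61% of the reads in replicate 1 and 11.4% in replicate 2. Rplp0 was at 2695 and 2475 CPM, Rpl4 at 2412 and 2693 CPM and Rpl3 at 2332 and 2554 CPM, so the 3 highest were nearly level. Their median log2 ratio of replicate 1 over replicate 2 was -0.47, and the list of 40 such genes kept this direction under all 4 scalings. Base composition moved with the ratio as well. In the fifth of genes with the highest GC content of the longest transcript, 55.0% to 69.2%, 70.3% were higher in replicate 1, with a median log2 ratio of 0.25, against 49.9% in the fifth with the lowest. The part of GC content in the gene group values was not tested.

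**Figure D5:**
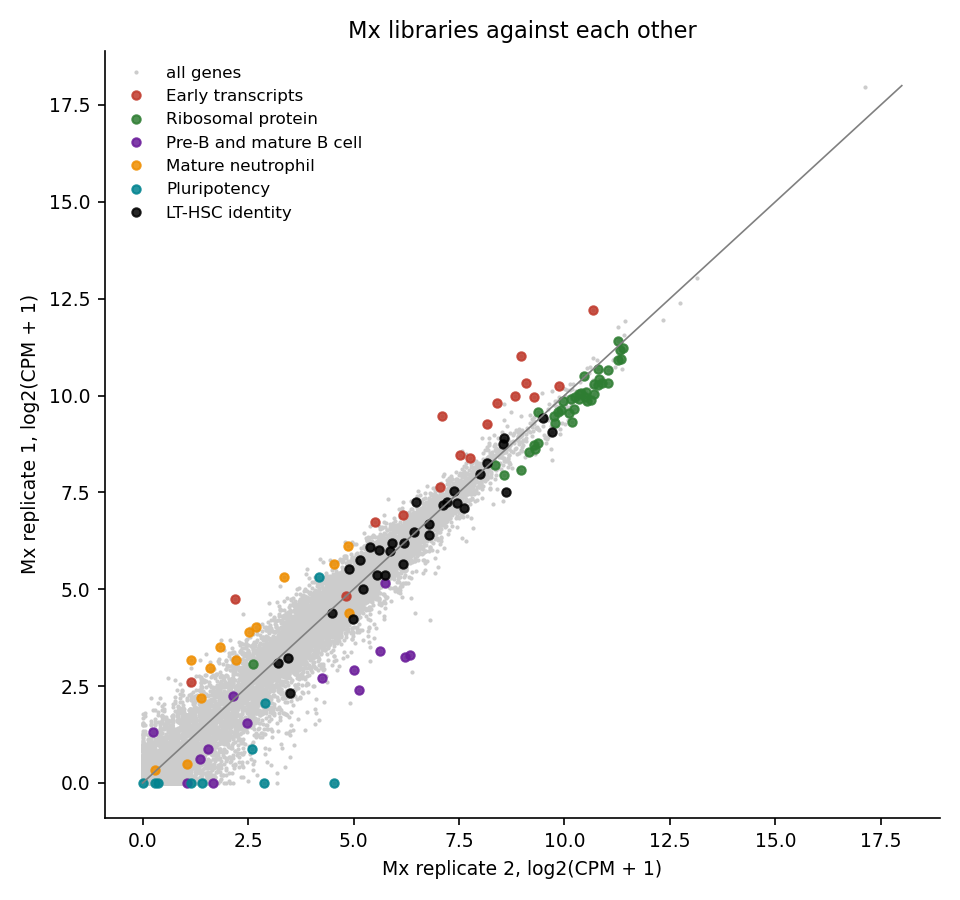
Each point is 1 gene, with log2(CPM + 1) in Mx replicate 1 on the y axis and in Mx replicate 2 on the x axis; the line marks equal levels and colours mark gene lists. The LT-HSC identity genes lie along the line, the early transcripts and mature neutrophil genes mostly above it, and the ribosomal protein and B cell genes mostly below it.

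Several marker lists of other blood cells also lay to one side. The shares of all genes set beside them are not matched for level, and the libraries differed more at low levels. The median absolute log2 ratio was 0.57 from 1 up to 10 CPM and 0.18 from 100 up to 1000 CPM. All 7 B cell genes with a mean of at least 5 CPM were higher in replicate 2, against 46.6% of all genes. Of these 7, 6 were over 2-fold higher there, against 2.5% of all genes. Cd79a, a chain of the B cell receptor complex, was at 8.89 and 80.1 CPM, Igll1, of the surrogate light chain, at 8.51 and 73.5 CPM and Cd79b at 34.5 and 52.6 CPM. Of 14 B cell genes 9 were detected, and the list summed to 86.4 CPM in replicate 1 and 353 CPM in replicate 2. The mature B cell genes Ms4a1 and Cr2 were at 0 and 2.17 CPM and at 1.5 and 0.188 CPM. Dntt, the terminal transferase of lymphoid progenitors, followed the same pattern at 17.4 and 111 CPM.

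Mature neutrophil genes lay the other way. Of 8 with a mean of at least 5 CPM 7 were higher in replicate 1, against 53.4% of all genes. All 7 were over 2-fold higher there, against 2.17% of all genes, and the list of 13 summed to 243 and 111 CPM. S100a8 and S100a9, the calprotectin chains, were at 68.2 and 28.1 and at 49.5 and 22.1 CPM, and Ngp, a granule protein, was at 38.5 and 9.23 CPM. Cxcr2 was the member higher in replicate 2, at 20.1 and 28.6 CPM. All 7 B cell genes and 7 of the 8 neutrophil genes kept their side under all 4 scalings. Of 7 T and NK cell genes 6 were higher in replicate 2, against 46.6% of all genes. Of these 7, 3 were over 2-fold higher there, against 2.5% of all genes. Granulocyte-monocyte progenitor genes lay on the side opposite to the neutrophil genes, with 7 of 9 higher in replicate 2, against 46.6% of all genes. Of these 9, 3 were over 2-fold higher there, against 2.5% of all genes. Among them the protease Elane, at 1.57 and 13.4 CPM, passed the limit through replicate 2 alone. Lyz2 at 242 and 255 and Csf3r at 74.4 and 76.6 CPM were nearly level. Prtn3 at 136 and 103 and Csf2ra at 29.5 and 23.2 CPM were higher in replicate 1. The counts of 6 and 7 higher genes were the same under all 4 scalings. Of 6 plasma cell genes 3 were over 2-fold higher in replicate 2, against 2.5% of all genes, and the other 3 higher in replicate 1. Of the first 3, Mzb1 at 3.26 and 18.7 and Irf4 at 4.31 and 10.3 CPM passed the limit through replicate 2 alone. On library totals the counts higher in replicates 2 and 1 became 4 and 2. Of the 16 mitotic genes 13 were higher in replicate 2, against 46.6% of all genes, and none over 2-fold under the authors' scaling. On library totals 14 were higher there, as were 6599 of 10297 genes. The identity list showed no such shift under the authors' scaling, with 14 of 32 higher in replicate 1 and 18 in replicate 2, and had 8 and 24 when scaled to library totals. The part of other cells in the differences between the libraries was not tested.

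Dppa5a, a gene of pluripotent cells, was at 0 in replicate 1 and 22.1 CPM, from 468 reads, in replicate 2, which is at least 196-fold higher in replicate 2 against 3 reads in replicate 1. Arpp21 was at 0 and 8.15 CPM and Zfp42, another pluripotency gene, at 0 and 6.36 CPM. Rnd3, 1700019G17Rik, Gfra1, Plxdc1, Tfcp2l1, Slamf7 and Cth followed, each between 0.150 and 0.60 CPM in replicate 1 and between 5.18 and 10.3 CPM in replicate 2. Of the pluripotency list 2 of 10 were detected, Klf4 at 39.1 and 17.2 CPM and Nanog at 3.15 and 6.45 CPM, while Pou5f1 was at 0.825 and 5.04 CPM, Sox2 at 0 and 0.236 CPM and Fgf4 at 0 in both. On the other side the gaps were smaller, with Frk at 5.51 and 0.518 CPM, a ratio of 10.6, as the widest. Zfp493, Hspa1a, Camp, Mkrn3, Arhgef10l, Junb, Tnfrsf13b, Tpgs1 and Slc45a3 came after it, with ratios between 4.48 and 7.48. The genes above 0 in only 1 library were mostly at the floor. There were 1668 such genes in replicate 2, with a median of 0.0942 CPM, and 447 in replicate 1, with a median of 0.112 CPM.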

How the data were processed

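RNA of sorted LT-HSC was measured in 6 libraries, of which the 2 Mx libraries were used. The values of the deposited table are a signal: CPM that the authors normalized, per the file headers. The submitters' processing notes list edgeR 3.20.7, HTSeq 0.6.1p1, TopHat2 2.1.0, CASAVA 1.8, SAMtools 0.1.18 and Bowtie2 2.2.4, and the build mm9. For the annotation, the strand setting and multiply matching reads, nothing is given in the sources used here. All 35994 Mx values (100%) divided by the lowest nonzero value in the same library into whole numbers, to within 0.01 reads, which gave the reads.

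Groups came from the sample titles. Python 3.11.15, pandas 2.3.3, NumPy 2.4.6 and BLAST+ 2.17.0 were used. Detection meant 1 CPM in both libraries; libraries were compared on genes with a mean of at least 5 CPM and called apart over 2-fold, without a test. Exon lengths came from GENCODE M21 on GRCm38, another build than that of the table, matched by symbol for 17741 genes. BLAST matches needed 95% identity over 100 bases, except the search against mitochondrial ribosomal RNA. The scripts were checked on simulated data. Members and the 85 lists (862 of 901 genes in the table) were chosen with earlier results of these data known. The named genes are the 25 highest by CPM, the 10 highest per coding kilobase, the markers, the 3 highest of each list with those at 0, and the 10 furthest apart each way; others named were chosen after their values were seen. A few genes that this rule covers are not reported here, though list counts and sums include them. Overlapping and antisense genes may share reads. Alternatives covered thresholds, scaling, pseudocount and single libraries.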

Additional observations from a re-analysis of the deposited data

How the results depend on the processing

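The count of 11765 detected genes stayed within 1.5 times under all 8 alternatives, between 9867 at 5 CPM and 13736 at 3 reads. From single libraries it was 12141 to 12341. The Pearson correlation was 0.982, and it was 0.965 with a pseudocount of 0.1 CPM and 0.968 over genes at or above 1 CPM in both libraries. The 478 genes over 2-fold apart became 41 at a fold of 4, 1175 at a minimum mean of 1 CPM and 165 at 20 CPM, limits that change which genes can count; the 3 other scalings gave 496 to 571. The mean share of reads in the top 100 genes was 19.9% without Rn45s and 36.2% with it, and 19.2% to 21% from single libraries. Of the top 100 genes 88% were shared, 89% by CPM per kilobase of coding sequence, 92% per kilobase of exon (chosen after seeing the data), 78% for the top 50 and 89.8% for the top 500. Of 862 listed genes 646 were detected, 536 at 5 CPM and 698 in replicate 2 alone. The summed level of the other cell lists was 5998 to 6297 CPM from single libraries. Median-of-ratios size factors were computed from these 2 libraries alone. No paired analysis was possible because only 1 group was described. Animals, sorting and amplification may each differ between the 2 libraries and cannot be told apart. Below 1 CPM the median absolute log2 ratio between the libraries was 1.09, beside 0.57 from counting alone.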
